A study of Homo sapiens with 4 samples.

Results

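The genes described here are 49 genes of mitosis: the kinases and cyclins that drive entry into mitosis, the kinetochore and spindle checkpoint, the spindle motors, the condensin complex and the genes of anaphase and cytokinesis. They were taken by symbol from the deposited count table, which held all 49 among its 56638 gene symbols. The cells were MV4;11, an established human line from acute myeloid leukaemia that carries a KMT2A rearrangement and an activating FLT3 mutation, grown in RPMI. One group (2 libraries) had received CU-T12-9, a synthetic compound that activates the TLR1 and TLR2 heterodimer, at 1 µg/mL for 24 h, and the other (2 libraries) had received vehicle. The labels name the vehicle as DMSO for the samples and as PBS in the treatment protocol, so the control libraries are called DMSO after the sample label. No dividing-cell fraction, cell count or RNA yield was used here, and RNA came from whole cultures.

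Most of these genes are transcribed periodically, with little mRNA in G1 and a peak in G2 and M phase, so their transcripts are widely read as a measure of how many cells of a culture are cycling. Cyclin B with the kinase CDK1 starts mitosis, condensin compacts the chromosomes, the kinetochore attaches them to the spindle, and the spindle checkpoint holds back the anaphase-promoting complex until every chromosome is attached. In the repressive DREAM complex and its activating counterparts with B-MYB and FOXM1, the MuvB core binds a promoter element called the cell cycle genes homology region (CHR), often downstream of CCAAT boxes bound by NF-Y, while E2F factors bind GC-rich sites in genes that peak earlier, at the G1/S transition.

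Library totals were 23087102 to 25867733 counted reads, and a single read corresponded to 0.0384 to 0.0442 CPM (read counts expressed relative to each library’s size after TMM adjustment). The least covered member in any library, CDC25C, still had at least 111 reads, so depth limited no member. The 10 listed pseudogenes and near-identical copies of members held at most 2 reads in a library, and the antisense row PRC1-AS1 held 6 to 17. Whether counting used strand, and how reads with several map positions were treated, is not stated in the labels or processing notes. Markers of the line were present (all 10 of 10, PTPRC, CD33, SPI1 and FLT3 among them). They summed to 3131 to 3210 CPM under DMSO and 2593 to 2734 CPM under CU-T12-9. LYZ was the largest part of each sum, at 2043 and 1961 CPM under DMSO and 1226 and 1327 CPM under CU-T12-9. In the edgeR test described below, LYZ, CD33 and FLT3 were called lower. PTPRC, SPI1, KIT, CSF1R, HOXA9, HOXA10 and MEIS1 were called higher. Markers of other lineages were low. Their summed level was at most 6.22 CPM for any of 5 lineages (T and NK, B, epithelial, fibroblast and endothelial cells). CD3D, CD3G, EPCAM, CDH1, PECAM1 and KDR had 0 reads in every library. The highest single marker was NCAM1 (5.87 and 4.59 CPM under DMSO, 2.35 and 2.65 CPM under CU-T12-9). KRT8 had 2.99 and 3.67, then 2.44 and 2.52 CPM, and KRT18 had 2.38 and 2.55, then 1.03 and 1.15 CPM. Erythroid markers summed to at most 0.845 CPM.

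Promoter sequences introduce the genes because their letters recur across the members. RefSeq promoter windows (GRCh38.p14, from 250 bases before to 50 bases after an annotated start) were matched by symbol for 41 of the 49 members, with 55 windows in all. The motifs searched, on both strands, were the CHR letters TTTGAA or TTCGAA, the CCAAT box letters CCAAT, and the E2F letters TTTCCCGC, TTTCGCGC, TTTGCCGC or TTTGGCGC. In the windows of CDCA8 and MKI67, a CHR match shared bases with a CCAAT match. The stretch of 250 bases before the start is printed for 7 members, 5′ to 3′ on the gene's strand with all matches in capitals (a CCAAT box on the other strand reads ATTGG, and a CHR on the other strand TTCAAA). CDC25A and CENPA are shown for their E2F letters, and CCNB2, TOP2A and PLK1 as genes of the G2/M type. INCENP and NCAPD2 are shown because they hold the same letters but were called as falling less than the mean of the members (tested below). CCNB2 was called so as well. Positions are: CDC25A, chr3:48188418-48188667 (minus strand); CENPA, chr2:26785806-26786055 (plus strand); CCNB2, chr15:59104896-59105145 (plus strand). The others are TOP2A, chr17:40417897-40418146 (minus strand); PLK1, chr16:23678639-23678888 (plus strand); INCENP, chr11:62123761-62124010 (plus strand). NCAPD2 lies at chr12:6493852-6494101 (plus strand).
CDC25A: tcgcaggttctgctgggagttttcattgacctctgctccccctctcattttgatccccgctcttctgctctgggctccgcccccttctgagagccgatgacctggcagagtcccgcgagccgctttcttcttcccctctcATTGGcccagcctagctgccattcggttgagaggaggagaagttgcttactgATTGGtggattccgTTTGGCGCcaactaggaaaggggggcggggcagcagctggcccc
CENPA: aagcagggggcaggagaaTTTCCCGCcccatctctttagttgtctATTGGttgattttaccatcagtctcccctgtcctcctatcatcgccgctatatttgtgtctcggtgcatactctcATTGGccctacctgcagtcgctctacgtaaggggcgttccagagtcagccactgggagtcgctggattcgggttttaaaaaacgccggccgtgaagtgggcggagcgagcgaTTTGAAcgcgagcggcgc
CCNB2: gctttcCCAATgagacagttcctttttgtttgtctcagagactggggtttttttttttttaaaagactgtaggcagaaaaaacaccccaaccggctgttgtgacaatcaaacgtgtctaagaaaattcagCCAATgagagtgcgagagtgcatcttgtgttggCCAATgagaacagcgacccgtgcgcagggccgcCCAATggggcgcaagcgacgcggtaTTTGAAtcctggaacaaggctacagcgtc
TOP2A: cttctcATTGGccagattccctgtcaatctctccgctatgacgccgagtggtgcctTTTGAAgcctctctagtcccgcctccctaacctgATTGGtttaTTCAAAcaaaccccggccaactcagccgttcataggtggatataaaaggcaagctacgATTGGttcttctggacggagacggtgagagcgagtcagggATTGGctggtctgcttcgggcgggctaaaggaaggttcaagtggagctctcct
PLK1: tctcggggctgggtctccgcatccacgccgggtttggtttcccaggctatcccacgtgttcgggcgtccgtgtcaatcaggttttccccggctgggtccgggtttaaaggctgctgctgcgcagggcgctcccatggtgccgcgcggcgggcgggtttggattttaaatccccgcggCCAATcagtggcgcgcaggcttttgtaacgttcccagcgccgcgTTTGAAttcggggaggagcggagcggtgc
INCENP: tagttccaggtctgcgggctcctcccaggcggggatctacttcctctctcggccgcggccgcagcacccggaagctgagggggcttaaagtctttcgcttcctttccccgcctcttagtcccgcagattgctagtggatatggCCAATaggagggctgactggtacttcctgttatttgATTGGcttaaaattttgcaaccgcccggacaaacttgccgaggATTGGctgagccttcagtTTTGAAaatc
NCAPD2: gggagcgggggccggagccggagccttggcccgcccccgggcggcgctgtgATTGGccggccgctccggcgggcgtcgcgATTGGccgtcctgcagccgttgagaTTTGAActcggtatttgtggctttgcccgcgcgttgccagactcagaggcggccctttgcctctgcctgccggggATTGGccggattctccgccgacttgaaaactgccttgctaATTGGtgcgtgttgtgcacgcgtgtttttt

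CHR letters occurred in the windows of 30 of the 41 matched members (73.2%), against 19.5% of all 27305 genes with a window. CCAAT boxes occurred in 32 members (78%) against 39.7%, and both together in 22 members (53.7%) against 7.85%. CHR matches lay close to the start: in 19 members (46.3%) a match began within the 50 bases before it, against 3.43% of all genes. PLK1 and CCNB2 both had their CHR letters begin at -29, with the nearest CCAAT box at -73 in PLK1 and at -54 in CCNB2. The E2F letters were found in 3 members, CDK1, CDC25A and CENPA (7.32%, against 3.99% of all genes). A match is a run of letters and not a measured binding site. No match means only that these letters are not in the window.

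**Figure D1:**
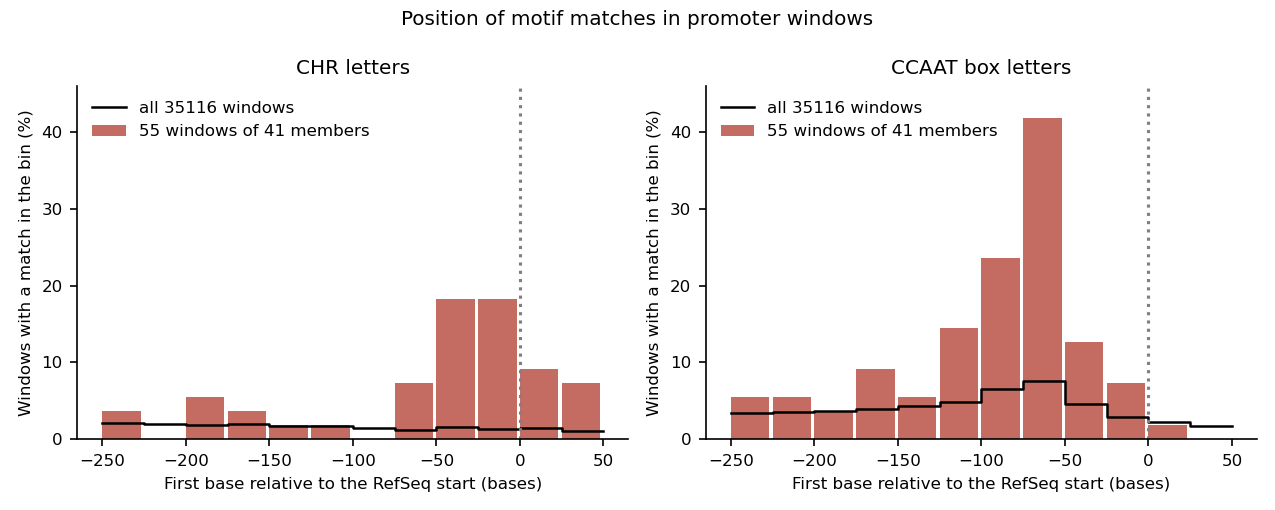
Share of promoter windows (%, vertical axis) with a CHR match (left) or a CCAAT box match (right) beginning in each bin of 25 bases relative to the RefSeq start (horizontal axis); bars are the 55 windows of 41 members and the black line is all 35116 windows. Member CHR matches were most frequent in the bins from -50 to 0 (18.2% of windows in each) and CCAAT matches from -75 to -50 (41.8%).

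Under CU-T12-9 all 49 genes were lower than under DMSO, by a median of 3.79-fold. The 49 genes together held 0.655% and 0.645% of all counted reads in the DMSO libraries and 0.220% and 0.216% in the CU-T12-9 libraries, so the libraries of each group lay close together and the groups did not overlap. The largest fall was in SPC24, a subunit of the outer-kinetochore NDC80 complex (6.31-fold), and the smallest was in SMC4, a core ATPase of condensin (1.38-fold). In these bulk cultures, fewer cells in mitosis and less mRNA per mitotic cell cannot be told apart.

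All 49 members passed the threshold (edgeR quasi-likelihood test, Benjamini-Hochberg adjustment over 14018 tested genes, adjusted p under 0.05), where 33.2% of all tested genes were called lower and 32.0% higher (65.2% in either direction). Their median log2 fold change was -1.92, against 0.00 for all tested genes, and 2.58% of the tested genes lay below the members' median. Tested against a fold of 2 instead of no change, 43 of the 49 members were lower and none higher, against 5.55% of all tested genes lower and 7.23% higher. Against a fold of 1.5 the counts were 47 lower and none higher, against 12% and 12.6% of all tested genes. The 6 members outside the call against a fold of 2 were CDC25B, ECT2, PTTG1, NCAPD2, BUB3 and SMC4. In each of the 49, both CU-T12-9 libraries lay below both DMSO libraries, as in 41.7% of tested genes. The 2 libraries of a group differed by at most 1.14-fold under DMSO (TTK) and at most 1.25-fold under CU-T12-9 (SPC25), and the lowest DMSO value exceeded the highest CU-T12-9 value by 1.36-fold (BUB3) to 5.69-fold (SPC24).

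**Figure D2:**
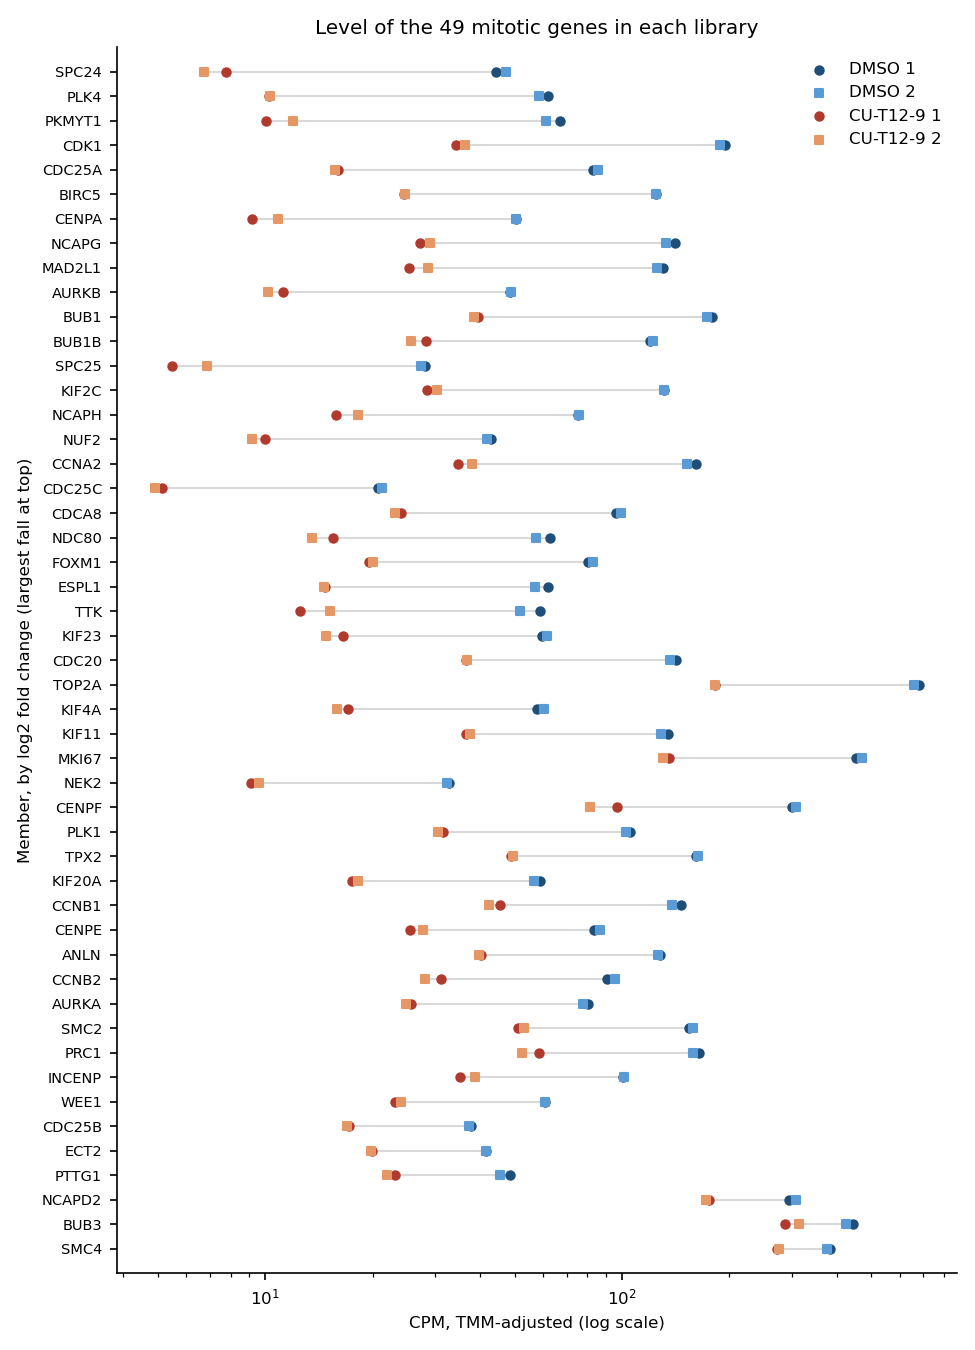
Level of each of the 49 genes in each of the 4 libraries (CPM, TMM-adjusted, log axis), ordered by log2 fold change with the largest fall at the top; circles are replicate 1 and squares replicate 2, blue for DMSO and red or orange for CU-T12-9. The CU-T12-9 points lie to the left of the DMSO points in every row, and the gap narrows from SPC24 to SMC4.

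The members did not fall by the same amount, and that difference was tested directly. The fit was repeated with each library scaled to the geometric mean of the 49 genes, so that a gene falling as the members do on average (mean log2 fold change -1.85) would show no change. Relative to this mean 19 members fell more and 16 fell less (edgeR quasi-likelihood test on the rescaled libraries, adjusted over all tested genes), and 14 passed in neither direction. The same fit called 1.44% of all tested genes lower and 93.9% higher. With so many genes called, the adjustment left p-values near the threshold almost unchanged. Calls near it, such as those of TPX2, CENPE, CCNB1, CCNB2 and FOXM1, are therefore close to single tests without correction for the number of members. The dividing line depends on the reference: against the summed reads of the members, 33 fell more and 7 fell less. The 7 that fell less under every reference and with any library left out were BUB3, CDC25B, ECT2, NCAPD2, PTTG1, SMC4 and WEE1. The 15 that fell more in every such setting were AURKB, BIRC5, BUB1, BUB1B, CCNA2, CDC25A, CDK1, CENPA, KIF2C, MAD2L1, NCAPG, NCAPH, PKMYT1, PLK4 and SPC24. The calls of the other 27 members, such as CDCA8, FOXM1, NUF2, SPC25, INCENP and SMC2, changed in at least 1 setting.

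**Figure D3:**
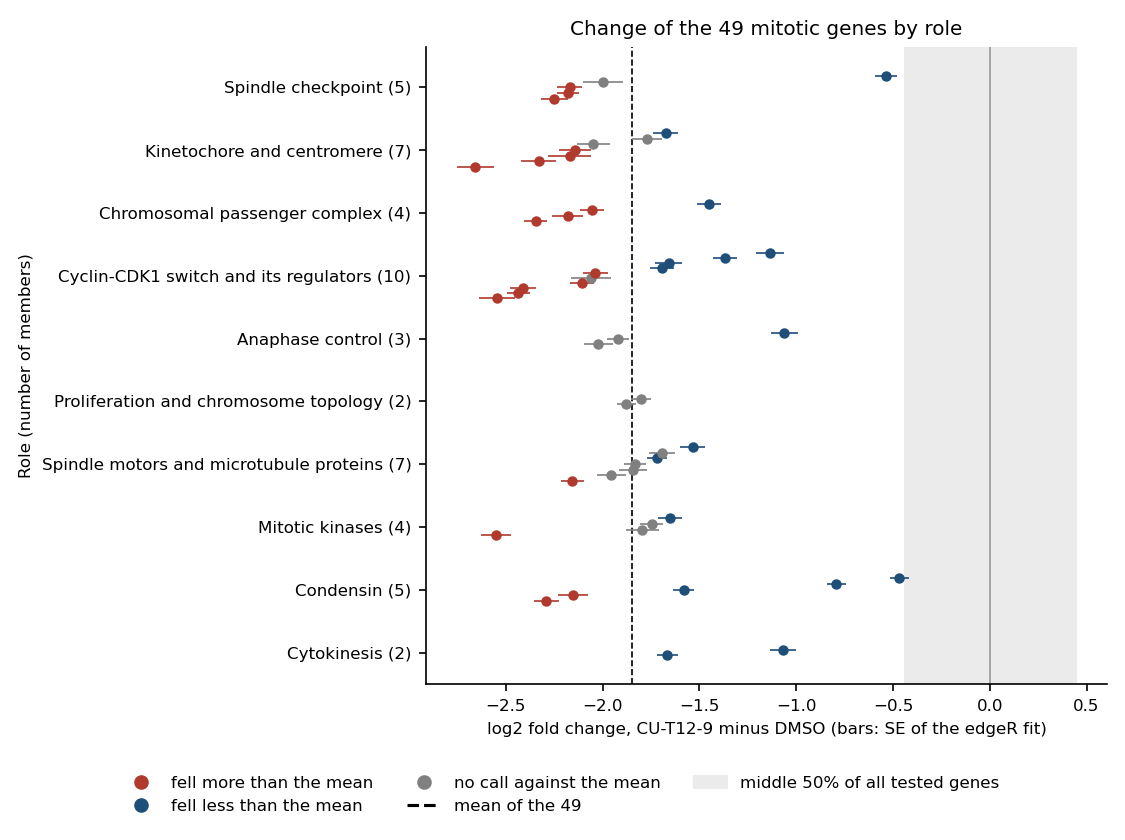
Log2 fold change of each of the 49 genes (CU-T12-9 minus DMSO; bars are the SE of the edgeR fit), grouped by role with the number of members in brackets. Red points fell more and blue points less than the mean of the 49 (dashed line), grey points passed in neither direction, and the grey band spans the middle 50% of all tested genes (-0.44 to 0.45). Every role except cytokinesis holds points on both sides of the dashed line.

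All 10 genes of the cyclin-CDK1 switch fell (median -2.05 on the log2 scale), and they spread from 2.2-fold to 5.84-fold. CDK1, the kinase that drives entry into mitosis, stood at 194 and 188 CPM under DMSO and at 34.2 and 36.4 CPM under CU-T12-9. Its fall of 5.41-fold (log2 fold change -2.44, SE 0.06, edgeR adjusted p = 3.2e-09) exceeded the members' mean by 0.59 on the log2 scale (SE 0.06, adjusted p = 5.12e-06). CCNA2, the cyclin of S and G2 phase, went from 161 and 153 to 34.8 and 38 CPM, a 4.31-fold fall. The mitotic cyclins had smaller folds. CCNB1 went from 146 and 138 to 45.4 and 42.5 CPM (3.23-fold) and CCNB2 from 90.6 and 95.6 to 31 and 28 CPM (3.15-fold). Both B cyclins lay above the members' mean (by 0.16 and 0.19 on the log2 scale, edgeR adjusted p = 0.033 and 0.0291), a call that was lost against the summed member reads (values of -0.13 and -0.10). It was also lost for CCNB1 without either DMSO library or without CU-T12-9 replicate 1 (0.193, 0.125 and 0.106), and for CCNB2 without DMSO replicate 1 or CU-T12-9 replicate 1 (0.144 and 0.112).

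The regulators of CDK1 phosphorylation separated within their families. Of the inhibitory kinases, PKMYT1, which sits on membranes and phosphorylates CDK1, went from 66.9 and 61.4 to 10.05 and 11.9 CPM, a 5.84-fold fall. WEE1, the nuclear kinase for the same task, went from 60.7 and 61 to 23.1 and 24 CPM, 2.58-fold lower. PKMYT1 lay 0.70 below and WEE1 0.48 above the members' mean on the log2 scale (edgeR adjusted p = 5.02e-05 and 5.87e-05). Among the CDC25 phosphatases, which remove those inhibitory phosphates, CDC25A fell 5.32-fold (82.7 and 85.8 to 16 and 15.7 CPM) and CDC25C 4.17-fold (20.7 and 21.2 to 5.13 and 4.91 CPM). CDC25B fell only 2.2-fold, from 37.8 and 37.4 to 17.2 and 17 CPM. CDC25B thereby made up 26.8% and 25.9% of the summed reads of the 3 phosphatases in the DMSO libraries but 44.9% and 45.2% in the treated ones, while CDC25A went from 58.6% and 59.4% to 41.7% and 41.8%. FOXM1, the transcription factor of many G2/M genes, fell 4.11-fold, from 80.2 and 82.8 to 19.6 and 20.1 CPM.

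Among the mitotic kinases PLK4 stood apart from AURKA, PLK1 and NEK2. PLK4, which starts centriole duplication, went from 62.1 and 58.6 to 10.3 and 10.3 CPM, a 5.86-fold fall that exceeded the members' mean by 0.70 on the log2 scale (SE 0.08, edgeR adjusted p = 1.24e-05). PLK1, the Polo-like kinase of mitotic entry and spindle assembly, went from 105 and 103 to 31.5 and 30.4 CPM (3.36-fold). AURKA, the centrosome and spindle kinase, went from 80.4 and 77.8 to 25.6 and 24.8 CPM (3.14-fold), and the centrosome kinase NEK2 from 32.7 and 32.3 to 9.15 and 9.59 CPM (3.47-fold). PLK1 and NEK2 passed in neither direction against the mean. Against the summed member reads both passed as falling more (-0.19 and -0.23, edgeR adjusted p = 0.0136 and 0.0259). AURKA fell less than it (difference 0.20, edgeR adjusted p = 0.0135), a call lost against the summed member reads (-0.0909) and without either DMSO library (0.213 and 0.185).

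In the chromosomal passenger complex, which carries Aurora B to centromeres and the midzone, 3 of 4 genes fell more than the mean and INCENP fell less. AURKB, its kinase, went from 48.5 and 48.8 to 11.2 and 10.2 CPM (4.53-fold). BIRC5, which encodes survivin, went from 125 and 125 to 24.5 and 24.6 CPM (5.09-fold), and CDCA8 (borealin) from 96.5 and 99.3 to 24 and 23.1 CPM (4.16-fold). INCENP, the scaffold that activates the kinase, went from 100.5 and 101 to 35.2 and 38.7 CPM (2.73-fold). Its share of the reads of the complex went from 27.1% in each DMSO library to 37.1% and 40.1%, while that of BIRC5 went from 33.7% and 33.3% to 25.8% and 25.5%. Against the summed member reads INCENP passed in neither direction. The call of CDCA8 was lost against the members' median (-0.16, edgeR adjusted p = 0.0774).

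All 5 spindle checkpoint genes fell, with BUB3 by the smallest fold. MAD2L1, the MAD2 protein that binds CDC20, went from 131 and 125 to 25.4 and 28.5 CPM (4.75-fold). BUB1 went from 179 and 173 to 39.5 and 38.4 CPM (4.52-fold), and BUB1B, which encodes BUBR1, from 119.8 and 122 to 28.2 and 25.5 CPM (4.5-fold). TTK, the kinase MPS1, fell 4-fold, from 59 and 51.9 to 12.5 and 15.2 CPM, with the widest spread between DMSO libraries of all members. BUB3, the adaptor that brings BUB1 and BUBR1 to kinetochores, went from 444 and 426 to 286 and 314 CPM, a fall of 1.45-fold (log2 fold change -0.54, SE 0.06, edgeR adjusted p = 3.67e-05). It lay 1.31 above the members' mean on the log2 scale (SE 0.06, edgeR adjusted p = 7.57e-09). In the mitotic checkpoint complex of BUBR1, BUB3, MAD2 and CDC20, BUB3 took 53.1% and 52.6% of the summed reads of the 4 genes in the control libraries and 76.1% and 77.6% in the treated ones.

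Of the genes of anaphase control, CDC20, the activator of the anaphase-promoting complex, went from 142 and 136 to 36.6 and 36.8 CPM (3.79-fold). ESPL1, the protease separase that cuts cohesin, went from 62.1 and 57 to 14.7 and 14.6 CPM (4.06-fold). PTTG1, which encodes securin, the inhibitor of separase, fell 2.09-fold, from 48.4 and 45.6 to 23.1 and 22 CPM. It lay 0.79 above the members' mean on the log2 scale (SE 0.07, edgeR adjusted p = 2.45e-06), and its intronless copies PTTG2 and PTTG3P had no read in any library.

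All 7 kinetochore and centromere genes fell (median -2.14 on the log2 scale). SPC24 went from 44.3 and 47.4 to 7.78 and 6.72 CPM (log2 fold change -2.66, SE 0.09, edgeR adjusted p = 2.61e-08), and its partner SPC25 from 28.1 and 27.3 to 5.47 and 6.85 CPM (4.5-fold). The microtubule-binding subunits of the same complex, NDC80 and NUF2, went from 62.9 and 57.5 to 15.5 and 13.6 CPM (4.14-fold) and from 42.9 and 41.8 to 10.01 and 9.19 CPM (4.41-fold). CENPA, the histone H3 variant that marks centromeres, went from 50.4 and 50.5 to 9.19 and 10.9 CPM (5.03-fold). The large corona proteins had smaller folds, without a direct test against CENPA or SPC24. The kinesin CENPE went from 83.3 and 86.7 to 25.5 and 27.8 CPM (3.19-fold), and CENPF from 300.1 and 308 to 97 and 81.1 CPM (3.41-fold). CENPE lay above the members' mean (by 0.17, edgeR adjusted p = 0.0343), a call that was lost against the summed member reads (-0.11), without either DMSO library (0.137 and 0.214) and without CU-T12-9 replicate 2 (0.117). CENPF passed in neither direction (difference 0.08), though it passed as falling less without CU-T12-9 replicate 2 (0.21). Against the summed member reads CENPF passed as falling more (-0.21, edgeR adjusted p = 0.029).

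The spindle motors and microtubule proteins fell by 2.9-fold to 4.46-fold. KIF2C, the microtubule-depolymerising kinesin MCAK, fell most, from 131 and 131 to 28.5 and 30.3 CPM, and was the only 1 of these 7 genes to fall more than the members' mean (by 0.31 on the log2 scale, edgeR adjusted p = 7.85e-04). PRC1, which bundles the midzone microtubules, fell least, from 164 and 158 to 58.6 and 52.6 CPM. The bipolar motor KIF11 went from 135 and 129 to 36.6 and 37.4 CPM (3.57-fold) and TPX2, the activator of Aurora A, from 161 and 164 to 49 and 49.5 CPM (3.29-fold). TPX2 and PRC1 fell less than the members' mean (differences 0.13 and 0.32, edgeR adjusted p = 0.0451 and 0.00108), calls that the summed member reads did not give. Against that reference PRC1 passed in neither direction (0.0259, edgeR adjusted p = 0.709) and TPX2 passed as falling more (-0.16, edgeR adjusted p = 0.0184). The call of TPX2 was also lost without either DMSO library (0.109 and 0.151). Of the midzone motors, KIF23 went from 59.7 and 61.8 to 16.5 and 14.8 CPM (3.88-fold). KIF4A and KIF20A fell 3.58-fold and 3.23-fold, and these 3 and KIF11 passed in neither direction against the mean. Against the summed member reads, KIF23, KIF4A and KIF11 also passed as falling more (-0.39, -0.28 and -0.27, edgeR adjusted p = 9.97e-04, 0.0062 and 0.00128). KIF20A did not (-0.13, edgeR adjusted p = 0.0944). Of the cytokinesis genes, the contractile-ring scaffold ANLN fell 3.17-fold (128 and 126 to 40.4 and 39.7 CPM). ECT2, the exchange factor that activates RhoA at the cell equator, fell 2.1-fold (41.5 and 41.7 to 19.9 and 19.8 CPM). Both fell less than the members' mean, by 0.18 and 0.78 on the log2 scale (edgeR adjusted p = 0.0109 and 2.36e-06), but the call of ANLN was lost against the summed member reads (-0.11) and without either DMSO library (0.185 and 0.183).

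Condensin showed the widest spread of any role, from 1.38-fold to 4.89-fold. The kleisin NCAPH and the HEAT-repeat subunit NCAPG, which belong to condensin I alone, went from 75.5 and 75.9 to 15.8 and 18.3 CPM (4.45-fold) and from 141 and 133 to 27.2 and 28.9 CPM (4.89-fold). SMC2, a core ATPase shared with condensin II, went from 154 and 158 to 51 and 53.2 CPM (2.99-fold). Its partner SMC4 went from 382 and 375 to 271 and 276 CPM (log2 fold change -0.47, SE 0.05, edgeR adjusted p = 2.41e-05), and NCAPD2, the other HEAT-repeat subunit of condensin I, from 294 and 307 to 175 and 172 CPM (1.73-fold). SMC4 and NCAPD2 lay 1.38 and 1.06 above the members' mean on the log2 scale (edgeR adjusted p = 1.78e-09 and 2.12e-08), and NCAPG lay 0.44 below it (edgeR adjusted p = 7.95e-05). SMC4 thus went from 36.5% and 35.7% of the reads of the 5 subunits to 50.2% and 50.3%, and NCAPG from 13.5% and 12.7% to 5.03% and 5.27%. The 3 subunits particular to condensin II, NCAPD3, NCAPG2 and NCAPH2, also fell, by 2.41-fold, 3.77-fold and 2.68-fold.

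**Figure D4:**
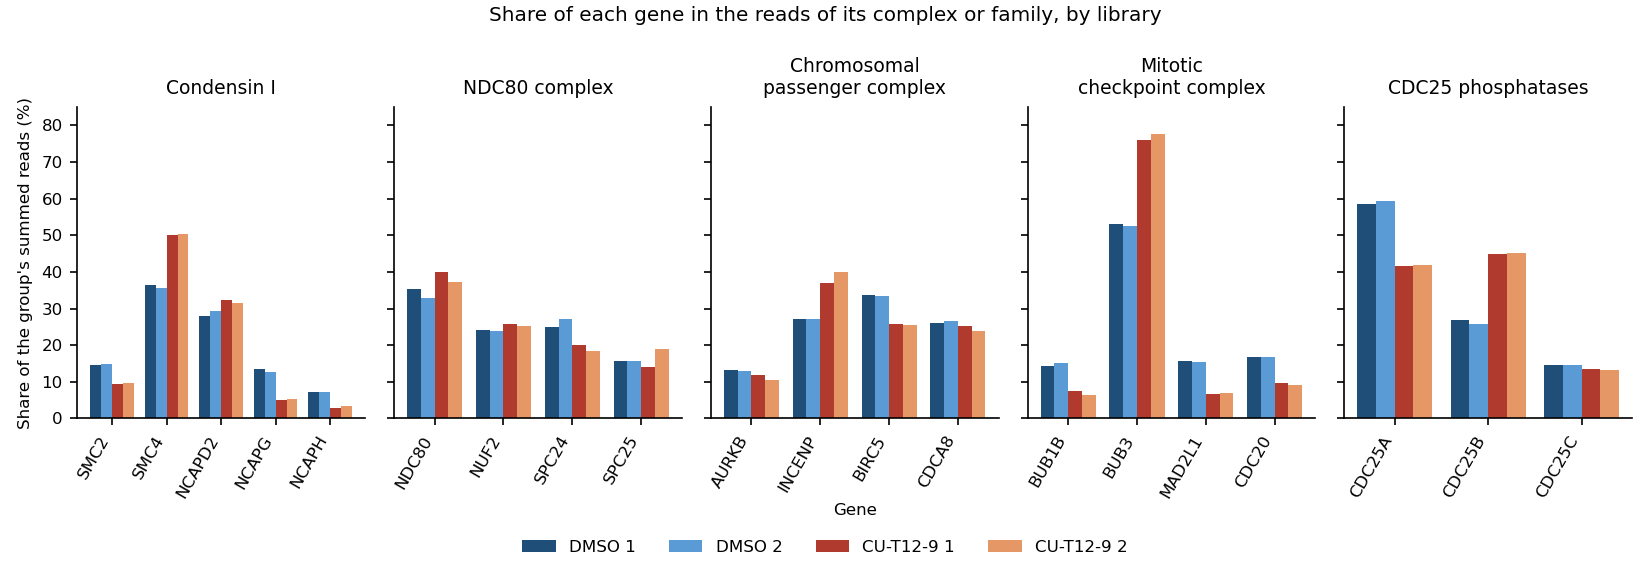
Share of each gene in the summed reads of its complex or enzyme family (%, from 0), with a bar for each of the 4 libraries; longer genes draw more reads, so only bars of the same gene are comparable. The bars of SMC4, INCENP, BUB3 and CDC25B are taller in both CU-T12-9 libraries than in both DMSO libraries, and those of NCAPG, BIRC5, MAD2L1 and CDC25A are shorter.

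TOP2A, the topoisomerase that untangles sister chromatids, and MKI67, the Ki-67 protein of the chromosome surface, fell close to the mean of the members. TOP2A went from 679 and 657 to 182 and 182 CPM (3.67-fold) and MKI67 from 453 and 472 to 135 and 130.1 CPM (3.48-fold). They differed from the members' mean by -0.03 (SE 0.05) and 0.05 (SE 0.05) on the log2 scale, with edgeR adjusted p = 0.605 and 0.397. Against the summed member reads, by contrast, both passed as falling more (TOP2A -0.32 and MKI67 -0.24, edgeR adjusted p = 1.52e-04 and 0.00198).

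The division of the members by size of fall was set beside their promoter letters as a description. It used the calls against the members' mean, which did not all hold in every setting. Of the matched members called either way, CCNB1, CENPE, ANLN, CCNB2, SMC2, PRC1, INCENP, CDCA8, NUF2 and SPC25 changed call in another setting. Of the 16 matched members that fell more than the mean, 10 had CHR letters (62.5%) and 12 a CCAAT box (75%). Of the 12 that fell less, 9 had CHR letters (75%) and 8 a CCAAT box (66.7%). The 13 matched members that passed in neither direction had the highest shares of the 3 groups, with CHR letters in 11 (84.6%) and a CCAAT box in 12 (92.3%). NCAPD2, INCENP and CCNB2, which fell less, hold CHR letters and 4, 3 and 4 CCAAT boxes in the stretches printed above. Their CHR letters begin at -145 in NCAPD2, at -10 in INCENP and at -29 in CCNB2. TOP2A, which passed in neither direction, also holds CHR letters and 4 CCAAT boxes. E2F letters occurred in 3 of the 16 that fell more (CDK1, CDC25A and CENPA, 18.8%), in 0 of the 12 that fell less and in 0 of the 13 others. CDK1 and CENPA also hold CHR letters, and all 3 hold CCAAT boxes. Whether any of these letters go with the size of the fall was not tested.

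Other genes of mitosis, in 12 lists of 146 genes outside the 49, fell in most cases but not throughout: 112 were lower and 12 higher (edgeR quasi-likelihood test, adjusted over all tested genes), with a median log2 fold change of -0.96. Among all tested genes 33.2% were lower and 32.0% higher. Tested against a fold of 2, 62 of the 146 were lower, beside 5.55% of all tested genes. The lists closest to the members were the other mitotic kinesins (all 8 lower, median -1.88) and the constitutive centromere network, which links CENPA nucleosomes to the kinetochore (all 16 lower, median -1.74). KIF18B and KIFC1 fell 4.92-fold and 4.86-fold, and CENPK and CENPM 5.94-fold and 5.44-fold. Of the other kinetochore and centromere-loading genes 16 of 18 were lower (median -1.58), led by SKA3 (5.68-fold) and ZWINT (5.36-fold), while MAD1L1, a partner of MAD2, was higher (log2 fold change 0.24). Of 7 genes listed beside cytokinesis, not all with an established role in it, 6 were lower, led by DEPDC1 and CEP55 (4.3-fold and 3.8-fold). RHOA, the GTPase that ECT2 activates, was higher (0.33).

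The enzyme core of the anaphase-promoting complex and its regulators gave different values. Of 14 core subunits 8 were lower and 1, ANAPC16, was higher (log2 fold change 0.36), with a median of -0.32 and none past a fold of 2. The core subunits with the largest changes were ANAPC11 and ANAPC1, 1.87-fold and 1.52-fold lower. All 4 coactivator, inhibitor and E2 genes were lower, with a median of -1.61: the E2 enzyme UBE2C fell 4.4-fold and the inhibitor FBXO5 (EMI1) 3.91-fold. The difference between these lists was not itself tested.

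Cohesin, which holds sister chromatids together, and its regulators gave 10 lower and 2 higher of 15 genes, with a median of -0.29. The list mixes subunits with regulators, so this median does not describe the complex alone. CDCA5 (sororin) and ESCO2, which establish cohesion in S phase, fell 5.11-fold and 4.63-fold, and the loader genes NIPBL and MAU2 rose (0.42 and 0.43 on the log2 scale). Of 14 spindle-associated proteins 12 were lower (median -1.40), GTSE1 and DLGAP5 most (3.65-fold and 3.62-fold), and NUMA1 and CLASP1 were higher (0.16 and 0.32). Of 19 centrosome and centriole genes 14 were lower (median -0.83), HAUS8 and HAUS5 of the augmin complex most (2.97-fold and 2.88-fold). PCNT and TUBGCP2, a subunit of the gamma-tubulin complex, were higher (0.30 and 0.90).

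Kinases and phosphatases of mitotic entry and exit were mostly near the middle of all genes, with 7 of 16 lower, 2 higher and a median of -0.11, beside the 33.2% lower and 32.0% higher of all tested genes. The haspin kinase gene, listed as GSG2, fell 4.2-fold and MASTL 2.23-fold. NEK6 and NEK9, kinases that act upstream of spindle assembly, rose (0.99 and 0.53 on the log2 scale). In the list of MuvB, B-MYB and E2F-DP partners 8 of 12 were lower (median -0.63). MYBL2, which encodes B-MYB, fell 6.63-fold, from 230.5 ± 4.4 to 34.8 ± 2.53 CPM (SD, n = 2 libraries in each group), a larger fall than in any of the 49. LIN9 of the MuvB core fell 3.33-fold. RBL2, which encodes p130, the pocket protein of the repressive DREAM complex in resting cells, rose by 0.53 on the log2 scale.

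**Figure D5:**
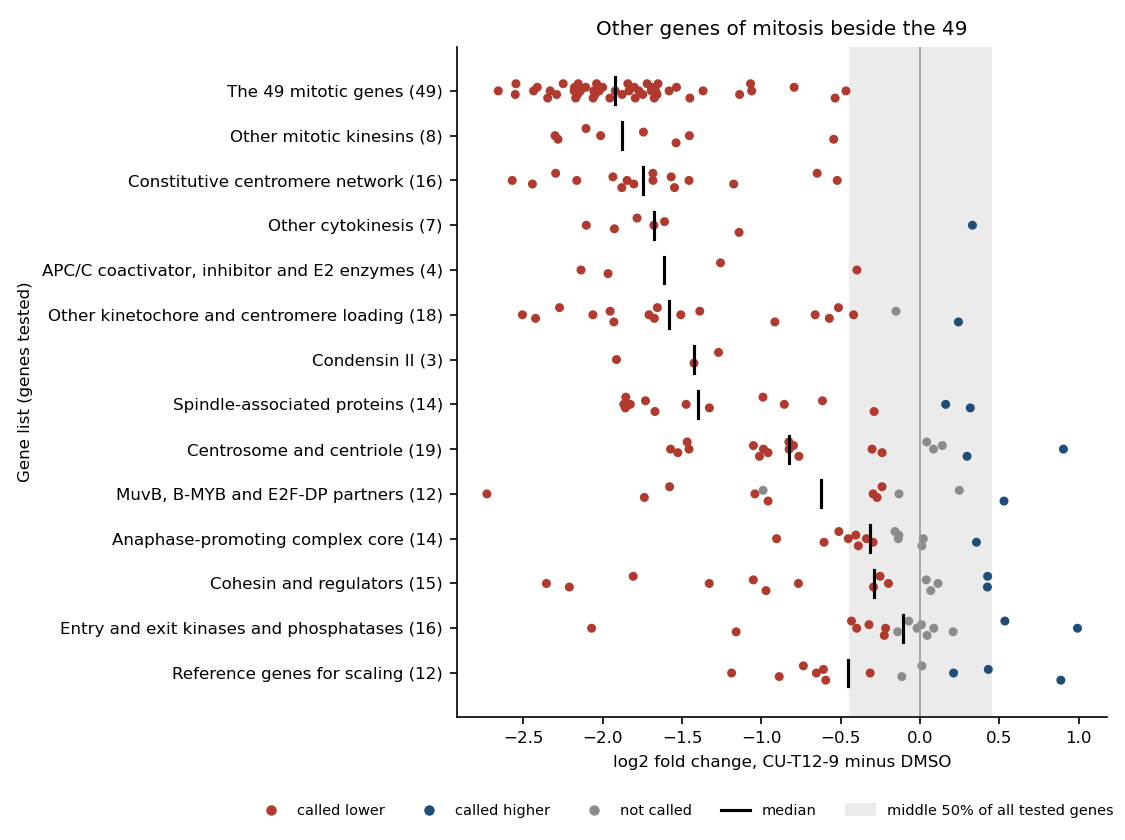
Log2 fold change (CU-T12-9 minus DMSO) of every tested gene of the 49, of 12 lists of other mitosis genes and of 12 reference genes, with the number of genes in brackets; black ticks are medians, red points were called lower, blue points higher and grey points neither. Medians run from -1.92 for the 49 and -1.88 for the other mitotic kinesins to -0.11 for the entry and exit kinases and phosphatases, and the grey band spans the middle 50% of all tested genes.

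Of 12 genes often used as references for scaling, 7 were lower and 3 higher, beside 33.2% and 32.0% of all tested genes. Their median log2 fold change was -0.45, from HPRT1 at -1.19 to ACTB at 0.89. The smallest falls among the members, SMC4 (-0.47) and BUB3 (-0.54), lay near that median. No fit was scaled to these reference genes.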

How the data were processed

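RNA was measured in 4 libraries, 2 per group, grouped by the sample labels. The deposited table holds raw read counts per gene symbol. Per the submitters' processing notes, FastQC 0.11.7, TopHat2, featureCounts 1.5.2 and the GRCh37 build were used; the annotation, strand setting and handling of multi-mapped reads are not stated there or in the labels. Each group's libraries are not labelled as separate cultures, so a p-value reflects variation among these libraries alone, which may be technical.

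Counts were fitted in R 4.3.3 with edgeR 4.0.16 (filterByExpr, TMM, quasi-likelihood test, Benjamini-Hochberg adjustment over 14018 tested genes, threshold 0.05). Tests against a fold used glmTreat. A further fit replaced the TMM scaling by an offset from the geometric mean of the 49 genes. Alternatives included DESeq2 1.42.0, limma-voom (limma 3.58.1), other scalings and filters, each library left out, and a replicate block. Of these, the main edgeR fit and the fit with the geometric-mean offset were run on simulated counts. A single read was worth 0.0384 to 0.0442 CPM.

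The members and the other lists were chosen with earlier results of these data known. All 49 members could be named, and of each other list the 2 genes with the largest absolute log2 fold change and every gene called against the direction of most of its list. NCAPD3 was named outside this rule, after its value was seen, to complete condensin II. Older symbols were matched through RefSeq synonyms. Promoter windows came from RefSeq, GRCh38.p14, and no coordinates were converted between builds.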

Additional observations from a re-analysis of the deposited data

How the results depend on the processing

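All 49 members stayed lower in tests of no change under every scaling, filter, tool and block tried. Their edgeR, DESeq2 or limma-voom adjusted p was at most 9.96e-05. All 49 also stayed lower with each library left out. Their log2 fold changes then ranged from -2.74 to -0.42. Tested against a fold of 1.5, 47 members were lower, with 1688 genes lower and 1761 higher in all. Against a fold of 2 these were 43, 778 and 1013, and of the other mitosis genes 62 were lower and 0 higher (2 higher against a fold of 1.5). With each library left out, genes lower ranged from 3936 to 4939 and higher from 3679 to 4969, members lower from 49 to 49, other mitosis genes lower from 107 to 116 and higher from 11 to 18, members that fell more than the mean from 15 to 20 and less from 10 to 16. The value of 10 came without DMSO replicate 1. Same-numbered libraries did not deviate together from their group means. The correlation of their deviations was 0.0099 over all genes and -0.34 over the members. With the replicate block 4655 genes were lower and 4488 higher, and 49 members were lower. In that setting 20 members fell more and 14 less than the mean, and 111 other mitosis genes were lower and 13 higher.

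Against the summed member reads, 33 members fell more and 7 less, and differences from the reference changed sign to -0.24 for MKI67, -0.13 for CCNB1, -0.10 for CCNB2, -0.0909 for AURKA, -0.19 for PLK1, -0.23 for NEK2, -0.11 for CENPE, -0.21 for CENPF, -0.27 for KIF11, -0.13 for KIF20A, -0.28 for KIF4A, -0.16 for TPX2, -0.11 for ANLN and -0.0212 for SMC2. Members that kept their sign shifted the same way, such as SMC4 (1.38 against the mean, 1.09 against the summed reads) and SPC24 (-0.81 and -1.10). The summed reads weight each member by its number of reads. Against the members' median TOP2A changed to 0.0136. With each library left out, the difference from the mean ranged from -0.0605 to 0.205 for CENPF, from -0.00849 to 0.041 for KIF11 and from -0.051 to 0.066 for KIF4A.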
